A study of Mus musculus with 4 samples.

Results

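Zbtb4, Zbtb38, Mbd1, Mbd2, Mbd3 and Mbd4 encode proteins that belong to the methyl-CpG binding families. Methylated DNA pulled down at these 6 genes (MeDIP), relative to input, was compared in mouse leukaemic cells with and without decitabine. The members were the probes that the array design names for one of the 6 genes, out of 19956 gene names. They number 191 of the 520554 probes on the array, and 120 of them were kept because their input signal was above background, and no spot was flagged as non-uniform, on all 4 arrays. Zbtb4 was chosen by its MeDIP ratio, which was among those that rose most after decitabine in WT cells, so its values in that comparison describe the choice and carry no test. The other 5 genes belong to the same families.

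Methylated CpG dinucleotides are read by proteins that bring repressors to DNA. ZBTB4 and ZBTB38 belong to the BTB zinc finger proteins that bind methylated CpG through zinc fingers, as does their relative Kaiso. MBD1, MBD2, MBD3 and MBD4 share a methyl-CpG binding domain: MBD1 partners with histone methylation factors, MBD2 and MBD3 are alternative subunits of the NuRD deacetylase complex, mammalian MBD3 itself binds methylated CpG poorly, and MBD4 is a glycosylase that removes thymine from mismatches at CpG sites. Decitabine is built into DNA in place of deoxycytidine and binds the DNA methyltransferases there, which lowers methylation in dividing cells.

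Each of 4 groups had 1 array: KO cells with decitabine, WT cells with decitabine, untreated KO cells and untreated WT cells. Decitabine was given at 20 nM, renewed every 24 h over 3 days, all cells were harvested at 72 h, and all were grown with interleukin-6, interleukin-3 and stem cell factor. The source names of the KO samples say Mll5KOHM and their genotype field says HOXA9 KO, the cell line field of all 4 samples says MII5, and nothing says whether a genotype is 1 clone or how many animals it came from. Methylated DNA was pulled down with an antibody (MeDIP), amplified and labelled with Cy3, and the amplified input of those cells was labelled with Cy5. The measurement is of DNA, so marker expression could not be used to check the cell type.

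The level of a probe below is its log2 ratio of MeDIP over input, with the median of the kept probes of each array at 0, and the level of a gene is the mean over its kept probes, given with the SD over probes. Since each array is centred on its own median, a level is relative to the other probes of that array. A rise in level need not be a gain of methylation, and a loss shared by all probes would not show. A probe is called above background where the scanner software flagged its MeDIP signal as well above background. MeDIP signal was weak: it was above background at 10.7% of spots on the KO decitabine array, 9.34% on the WT decitabine array, 2.69% on the untreated KO array and 2.73% on the untreated WT array. Of the kept probes, 37.6%, 38.7%, 58.9% and 60.8% on the same arrays held a surrogate, a value that the software puts in place of a signal too close to background. With 1 array a group, no difference between 2 arrays can be checked against replicates or given a p-value. Slide and group cannot be told apart, nor can dye and enrichment, because no dyes were swapped. The number of arrays and the dim MeDIP channel limit the precision of every value.

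Zbtb4 lies on chromosome 11 (69579414 to 69597525, plus strand, mm9). Its 16 probes cover the region around the annotated start, and 10 of them were kept, from 69577972 to 69580944: 2 upstream of the gene, 2 in annotated UTR and 6 in introns. The sequences of 7 of the kept probes, none in UTR, are shown because the signal above background at Zbtb4 comes from some of them. They are the probes of the array design, given 5′ to 3′ on the plus strand of mm9, with each CpG in capitals. The first is the only Zbtb4 probe above background on all 4 arrays, the next pair was above background on none, and the last 4 were above background on both decitabine arrays and on neither untreated array.
Upstream, chr11:69577972-69578025: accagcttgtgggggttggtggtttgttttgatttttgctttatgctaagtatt
Upstream, chr11:69579111-69579155: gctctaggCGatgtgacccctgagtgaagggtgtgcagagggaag
Intron, chr11:69579684-69579728: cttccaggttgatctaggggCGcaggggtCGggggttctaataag
Intron, chr11:69580472-69580523: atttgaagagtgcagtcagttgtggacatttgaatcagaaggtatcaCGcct
Intron, chr11:69580628-69580675: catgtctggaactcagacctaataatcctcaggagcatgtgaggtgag
Intron, chr11:69580742-69580788: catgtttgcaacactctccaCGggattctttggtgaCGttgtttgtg
Intron, chr11:69580899-69580944: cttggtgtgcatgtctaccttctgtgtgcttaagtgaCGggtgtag

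A MeDIP fragment is longer than a probe, so a probe with no CpG of its own can still report methylated neighbours. The 500-base windows centred on the 5 intronic probes that were above background with decitabine held 8 to 15 CpGs, while those of the 3 probes closer to the start held 21 to 45. Windows were called CpG-dense where GC was 55% or more and the observed number of CpGs was 0.75 or more of that expected from base composition, and CpG-poor where that ratio was under 0.48. By this measure 5 of the 10 kept Zbtb4 probes were CpG-poor, 5 were intermediate and 0 were CpG-dense.

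The level of Zbtb4 was 1.03 ± 1.39 on the KO decitabine array, 0.51 ± 1.62 on the WT decitabine array, 0.11 ± 1.36 on the untreated KO array and -0.95 ± 1.03 on the untreated WT array (SD over 10 probes). Among 18332 genes with at least 3 kept probes, these levels stood at percentiles 99.3, 90.5, 68.6 and 3.65 of their arrays. Zbtb4 was thus among the highest genes on the KO decitabine array and among the lowest on the untreated WT array. Of the 10 probes, 6 were above background on each decitabine array and 1 on each untreated array, and 1, 1, 4 and 7 probes held a surrogate value in the same order of arrays. Of all kept probes, 16.1%, 14.2%, 4.09% and 4.08% were above background on the KO decitabine, WT decitabine, untreated KO and untreated WT arrays.

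**Figure D1:**
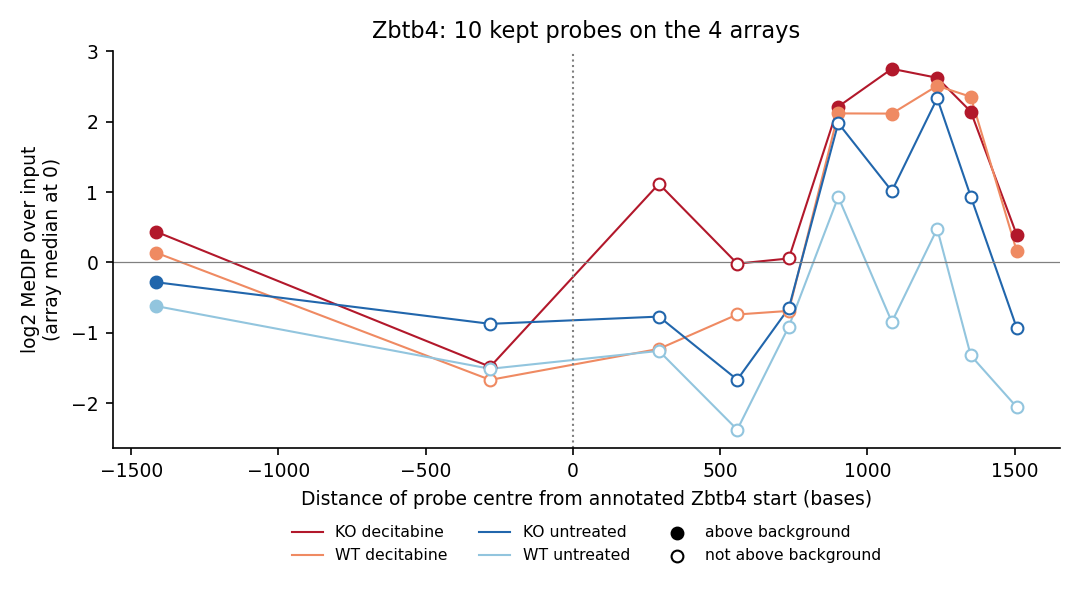
Level of the 10 kept Zbtb4 probes (log2 MeDIP over input, array median at 0) against the distance of the probe centre from the annotated start in bases, 1 line for each array; filled points were above background. More than 800 bases into the gene both decitabine lines carry filled points, and the untreated WT line is the lowest.

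In WT cells Zbtb4 was 1.46 ± 1.29 higher with decitabine on the log2 scale (2.75-fold, SD over 10 probes), with 9 of 10 probes higher. This rank of 25 among 18332 genes is the reason for its choice. It was the only one of the 6 genes past the 2-fold limit, which asks for a mean change of 2-fold or more and for 80% or more of the probes to share its direction. That limit was passed in the higher direction by 0.649% of all genes and in the lower direction by 0.0927%, and nothing is read from the members' count here because the choice used this comparison. The limit was no longer met with loess, quantile or normexp processing, with centring on bright probes, or without the probe filter (changes of 0.57, 1.14, 0.99, 1.01 and 1.04). At the 1 probe above background on both WT arrays the change was 0.76, and 7 of 10 probes held a surrogate on the untreated WT array.

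The comparison in KO cells shares no array with the one that chose Zbtb4. There Zbtb4 was 0.92 ± 0.79 higher with decitabine (1.89-fold, SD over 10 probes), again with 9 of 10 probes higher, and ranked 241 among 18332 genes. It did not pass the 2-fold limit, which 0.666% of all genes passed in the higher direction and 0.0491% in the lower, and 0 of the 6 genes did. The change moved with the processing: it was 0.06 after loess, 0.16 with centring on bright probes and 0.39 with normexp. It was 0.49 without the probe filter, 0.61 with summed signals and 1.24 as the median over probes. The difference between the changes, KO minus WT, was -0.54, a single value that these arrays cannot test.

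Along the gene, the rise was uneven. The upstream probe above background on all 4 arrays (chr11:69577972-69578025, 1416 bases before the start) had levels of 0.44 and 0.14 on the KO and WT decitabine arrays, against -0.28 and -0.62 on the untreated KO and WT arrays. It is the only Zbtb4 probe with a measured size in both genotypes, and it was higher with decitabine by 0.72 in KO and by 0.76 in WT cells. With centring on bright probes, which moves these changes by -0.75 in KO and -0.45 in WT cells, no rise was left in KO cells. Between 281 bases before and 733 bases after the start, none of the 4 kept probes was above background on any array. Their changes ran from -0.61 to 1.89 in KO and from -0.16 to 1.64 in WT cells, with no measured size.

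The 5 probes more than 800 bases into the gene had the highest levels with decitabine as a group, and this grouping was made after their values were seen. Their mean change was 0.96 in KO and 2.42 in WT cells. At the 3 probes 292 to 733 bases in, above background on no array, it was 1.42 in KO and 0.63 in WT cells. The rise was thus larger past 800 bases only in WT cells, the comparison that chose Zbtb4. Levels of the 5 probes with decitabine lay between 0.39 and 2.75 in KO cells and between 0.16 and 2.51 in WT cells. Without it they lay between -0.93 and 2.33 in KO and between -2.06 and 0.93 in WT cells. Since their MeDIP signal was not above background on the untreated arrays, only lower bounds can be given, against the higher of the probe's own signal and the dimmest signal above background on the untreated array.

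At the 4 of these probes whose sequences are shown, the ratio in WT cells was, in the order of the sequences, at least 1.81-fold, 1.47-fold, 2.98-fold and 1.10-fold higher with decitabine. In KO cells the bounds were 2.48-fold at chr11:69580472-69580523, 2.31-fold at chr11:69580742-69580788 and 1.58-fold at chr11:69580899-69580944. No bound over 1 was reached in KO cells at chr11:69580628-69580675. At that probe the KO decitabine level, 2.63, was close to the untreated KO level, 2.33, while the WT levels were 2.51 with decitabine and 0.48 without it. All bounds, here and at the other genes, hold for arrays centred on the kept probes. Centring on bright probes moves every decitabine change by -0.75 in KO and -0.45 in WT cells (log2). The lowest bounds are not kept under it, among them 1.10-fold in WT and 1.58-fold in KO cells at chr11:69580899-69580944.

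Probes above background on both decitabine arrays and on neither untreated array made up 5 of 10 kept probes at Zbtb4, 4 of 110 at the other 5 genes (3.64%) and 6.87% of all 328399 kept probes. By window, the CpG-poor Zbtb4 probes changed by a mean of 1.06 in KO and 2.33 in WT cells, and the intermediate ones by 0.77 and 0.58. Over all kept probes of the array the means were 0.01 in KO and 0.06 in WT cells for CpG-poor windows, and 0.23 and 0.21 for intermediate windows. Zbtb4 was chosen for its rise in WT cells, so its 5 of 10 probes and its WT means describe that choice and carry no test. The untreated arrays held more surrogate values, at Zbtb4 and across the array, and their part in the result was not tested.

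Genotype was compared within each treatment. Without decitabine Zbtb4 was 1.06 ± 0.71 higher in KO than in WT cells (2.08-fold, 10 of 10 probes higher, SD over 10 probes), past the 2-fold limit that 0.196% of all genes passed in the higher direction and 0.164% in the lower. The limit was no longer met under 6 of 12 alternatives: loess (0.72), quantile (0.95) or normexp (0.98) processing, the MeDIP channel alone (0.77), the median over probes (0.62) and summed signals (0.79). This comparison and the choice of Zbtb4 share the untreated WT array, where its level was lowest, so the difference is no separate evidence. With decitabine Zbtb4 was 0.52 ± 0.71 higher in KO than in WT cells, with 9 of 10 probes higher, and 0 of the 6 genes passed the limit that 0.458% of genes passed in the higher and 0.104% in the lower direction.

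The input signal at Zbtb4 also differed between genotypes. The median input signal of the 10 Zbtb4 probes, relative to that of the array, was 0.37 on the KO decitabine array and 0.46 on the untreated KO array, against 0.92 on both WT arrays (log2). In the MeDIP channel alone, Zbtb4 was 0.05 higher in KO than in WT cells with decitabine and 0.77 higher without it. At the 6 probes above background on both decitabine arrays the mean ratio was 0.19 higher in KO cells.

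The means of the other 5 genes lay closer together across the arrays. Zbtb38, Mbd1 and Mbd2 had levels above 0 on every array, and Mbd4 had the lowest of the 5 on every array. Neighbours in this order differed by less than the SD over their probes.

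**Figure D2:**
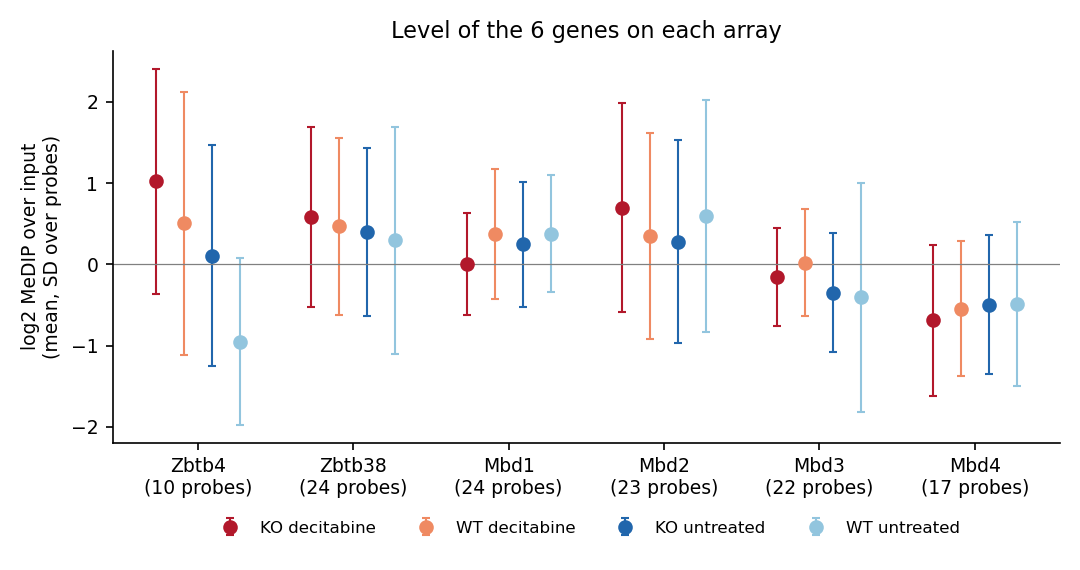
Level of the 6 genes (mean log2 MeDIP over input; bars are the SD over kept probes) on the KO decitabine, WT decitabine, untreated KO and untreated WT arrays, 1 array for each group. Zbtb4 spans from 1.03 to -0.95 between arrays, and the bars of the 6 genes overlap on each array.

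Zbtb38, the other zinc finger reader, had levels of 0.58 and 0.47 on the KO and WT decitabine arrays, against 0.40 and 0.30 on the untreated KO and WT arrays (24 kept probes on chromosome 9). It was 0.19 ± 1.0 higher with decitabine in KO and 0.17 ± 1.04 higher in WT cells, with 12 and 13 of 24 probes higher. Both means were small beside the SD over probes. All of its kept probes lie inside the annotated gene, the nearest 16635 bases from the annotated start, and 5, 6, 1 and 1 of them were above background on the KO decitabine, WT decitabine, untreated KO and untreated WT arrays. After loess and with centring on bright probes its mean change with decitabine over the 4 arrays turned to -0.08 and -0.42.

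A pair of intronic Zbtb38 probes is shown beside those of Zbtb4, picked after their values were seen, because they went opposite ways. The first was above background on both decitabine arrays alone and the second on all 4 arrays.
Zbtb38 intron, chr9:96634646-96634690: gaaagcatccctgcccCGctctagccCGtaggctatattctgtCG
Zbtb38 intron, chr9:96634197-96634256: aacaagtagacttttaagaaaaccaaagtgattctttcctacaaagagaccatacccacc
At the first, with 3 CpGs in 45 bases, the level was 0.11 in KO and -0.44 in WT cells with decitabine, against -1.30 in KO and -2.61 in WT cells without it, and the ratio was at least 2.67-fold higher in KO and 2.50-fold higher in WT cells. At the second, with 0 CpGs in 60 bases, the level was 1.73 in KO and 2.31 in WT cells with decitabine, against 2.25 in KO and 3.06 in WT cells without it, a change of -0.52 in KO and -0.75 in WT cells. Both lie in windows of 6 CpGs, and only the second has a measured size.

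The largest change at a Zbtb38 probe was 2.52 in WT cells (chr9:96632465-96632523, at least 1.32-fold higher) and 2.78 in KO cells at its single CpG-dense kept probe (chr9:96619971-96620015, in annotated UTR), which was above background on no array. The lowest was at chr9:96636272-96636331 in both genotypes, -1.32 in KO and -2.20 in WT cells, and that probe was above background on no array either.

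Mbd2, the NuRD subunit that binds methylated CpG, had opposite signs of its change with decitabine in KO and WT cells, which depended on the processing. Its levels were 0.70 and 0.35 on the KO and WT decitabine arrays, against 0.28 and 0.60 on the untreated KO and WT arrays (23 kept probes on chromosome 18). It was 0.42 ± 0.98 higher with decitabine in KO cells, with 14 of 23 probes higher, and changed by -0.25 ± 0.74 in WT cells, with 13 of 23 lower. Neither change exceeded the SD over probes, and over the 3 probes above background on both arrays of a pair the means were 0.20 in KO and -0.12 in WT cells. The signs were the same in both genotypes after loess (-0.025 in KO and -0.41 in WT cells), with centring on bright probes (-0.33 and -0.69) and with normexp (0.20 and 0.044). Above background were 7, 3, 3 and 4 of 23 probes on the KO decitabine, WT decitabine, untreated KO and untreated WT arrays.

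Upstream of Mbd2, 3 neighbouring probes were above background on all 4 arrays, more than at any other of the 6 genes; they are described after their values were seen. The probe centred 3305 bases before the start had a level of 2.76 in KO and 3.01 in WT cells with decitabine, against 3.87 in KO and 4.24 in WT cells without it. The probe centred 3154 bases before the start went the other way, with 3.00 in KO and 2.95 in WT cells with decitabine, against 2.27 in KO and 2.10 in WT cells without it. Their windows held 20 and 21 CpGs. Adjacent probes thus changed by -1.11 and 0.74 in KO cells and by -1.23 and 0.85 in WT cells.

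The third, 2819 bases before the start, changed by 0.97 in KO and 0.01 in WT cells. By contrast, the 2 kept probes in CpG-dense windows in the coding exon near the start of Mbd2 were above background on no array. One of them, 332 bases in, had the largest change of Mbd2 in KO cells (2.27), and the largest in WT cells was 1.08, 674 bases before the start. The lowest changes were -1.45 in KO cells, 2322 bases in, and -1.28 in WT cells, 2014 bases in. Of these 4 probes the last was above background on the KO decitabine and untreated WT arrays, and the others on none.

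Mbd3, the NuRD subunit that binds methylated CpG poorly, had levels of -0.15 and 0.02 on the KO and WT decitabine arrays, against -0.35 and -0.41 on the untreated KO and WT arrays (22 kept probes on chromosome 10). In KO cells it was 0.19 ± 0.78 higher with decitabine, with 10 of 22 probes higher, while the median over probes was -0.13. In WT cells none of its probes was above background on both arrays, so no size is given for the gene: its mean change of 0.43 ± 1.41 stood beside a median of 0.01 over probes, and 11 of 22 probes were higher.

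A single probe 176 bases into Mbd3 (chr10:79862097-79862141), in annotated UTR, had the largest change in both genotypes. Its window is CpG-dense, with 64 CpGs in 500 bases. Its level was 0.48 in KO and -0.55 in WT cells with decitabine, against -1.60 in KO and -4.17 in WT cells without it. It was above background on every array except the untreated WT array, so its change was a measured 2.08 in KO cells and at least 2.85-fold in WT cells. The untreated KO level was at least 1.37-fold above the untreated WT level. Of the 2 other Mbd3 probes with this pattern of signal above background, both intronic and CpG-poor, 1 (chr10:79859716-79859760) changed by 0.82 in KO cells and at least 2.17-fold in WT cells. The other (chr10:79860622-79860672) changed by -0.33 in KO cells, with no bound over 1 in WT cells. The lowest changes at Mbd3 were -0.78 in KO cells, 632 bases in, and -1.54 in WT cells, 2333 bases before the start, both at probes above background on no array.

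Mbd1, which also carries zinc fingers beside its methyl-CpG binding domain, had almost no signal above background: 0, 2, 0 and 0 of 24 kept probes on the KO decitabine, WT decitabine, untreated KO and untreated WT arrays (chromosome 18). No size is given for it. Its levels were 0.01 and 0.37 on the KO and WT decitabine arrays, against 0.25 and 0.38 on the untreated KO and WT arrays. The probe with its largest change in WT cells, 12969 bases in, was at least 1.11-fold higher with decitabine; the probes with its largest change in KO cells (0.62, 9790 bases in) and its lowest changes (-1.37 in KO cells, 399 bases in, and -1.33 in WT cells, 1799 bases in) were above background on no array.

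Mbd4, the glycosylase, had the lowest levels of these 5 genes: -0.69 and -0.54 on the KO and WT decitabine arrays, against -0.49 on both untreated arrays (17 kept probes on chromosome 6). Of these probes 14 lie upstream of Mbd4 and inside the annotated neighbour Ift122, and 3 lie in Mbd4 itself, 10579 bases or more from its start. Its change with decitabine was -0.06 ± 0.66 in WT cells, and in KO cells no probe was above background on both arrays. The probe 613 bases upstream, in an Ift122 intron, was above background on every array except the untreated KO array. It had levels of 1.22 in KO and 1.28 in WT cells with decitabine, against -0.34 in KO and 1.63 in WT cells without it. It had the largest change in KO cells, at least 1.29-fold higher with decitabine, and changed by -0.35 in WT cells. The largest change in WT cells (1.45, 3012 bases upstream) and the lowest changes (-1.25 in KO cells, 2911 bases upstream, and -1.01 in WT cells, 10681 bases in) were at probes above background on no array.

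**Figure D3:**
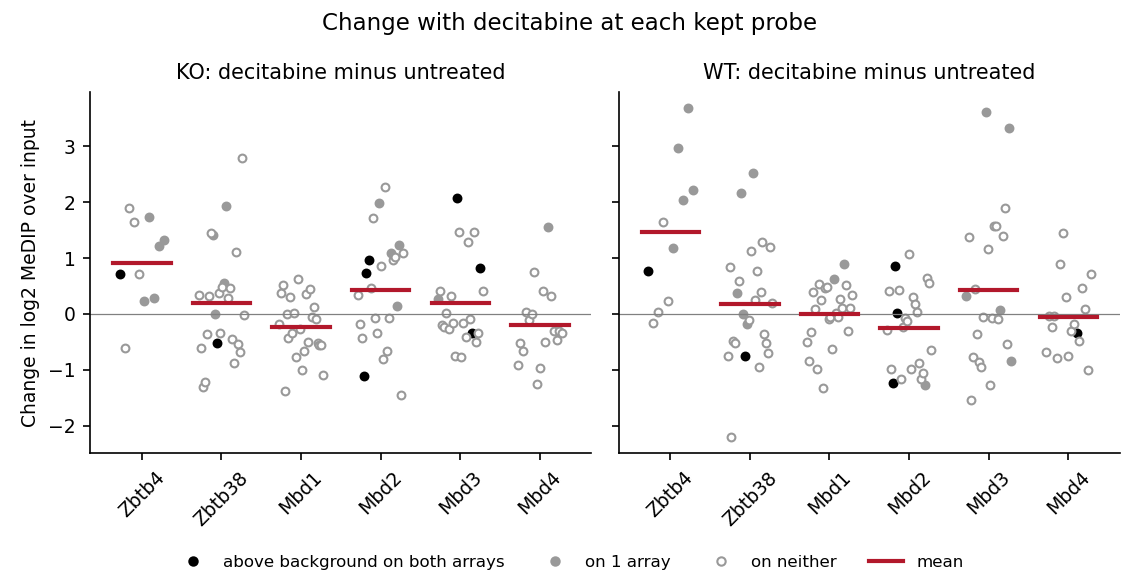
Change with decitabine (difference of log2 MeDIP over input) at each of the 120 kept probes, in KO cells (left) and WT cells (right), ordered along each gene by distance from its start; bars are gene means. Black probes were above background on both arrays of the pair, grey ones on 1 and open ones on neither, and few black points stand behind any mean.

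Across the 4 arrays, the treatment and genotype effects were fitted together with limma over all 18332 genes, with Benjamini-Hochberg adjustment at a threshold of 0.05. The fit leaves 1 residual degree of freedom, the interaction. Its SEs therefore rest mostly on departures from additivity shared over all genes, little on a gene's own, and not on replicates. The SE was 0.15 at Zbtb4 and 0.12 at Zbtb38, where the KO minus WT differences between changes were -0.54 and 0.015. With decitabine 11% of all genes were called higher and 3.5% lower (14.5% in either direction). Zbtb4 had an effect of 1.19 (SE 0.15, limma adjusted p = 0.0028), given as a description because 2 of the 4 arrays chose it. It lost the call after loess (0.32, limma adjusted p = 0.332) and quantile normalization (0.95, limma adjusted p = 0.0656), within a range of 0.0003 to 0.332 over 13 alternatives.

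Of the other 5 genes, 0 passed this test for decitabine. Mbd3 came nearest, with an effect of 0.31 (SE 0.12, limma adjusted p = 0.117) and a mean above 0 in both genotypes, and it was the only one of the 5 under 0.05 before adjustment. With arrays centred on the median of all probes instead of the kept ones, a choice added after the data were seen, Mbd3 passed at 0.45 (limma adjusted p = 0.0271), and as the median over probes its effect was -0.01. Zbtb38 had an effect of 0.18 (limma adjusted p = 0.322), Mbd2 of 0.09 (limma adjusted p = 0.731), Mbd1 of -0.12 (limma adjusted p = 0.533) and Mbd4 of -0.12 (limma adjusted p = 0.501). With centring on probes bright in both channels, Mbd1, Mbd2 and Mbd4 passed as lower, at -0.72, -0.51 and -0.72. With it 10111 of all 18332 genes were called, mostly as lower. Centring on all probes also called more of all genes than the 2652 as reported, so neither set of calls is particular to the members. Centring on bright probes moves every decitabine change by -0.75 in KO and -0.45 in WT cells. The direction of a small change at these genes thus rests on where an array is centred.

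For genotype, the same test called 2.01% of all genes higher and 2.1% lower in KO cells (4.11% in either direction). Zbtb4 had an effect of 0.79 (SE 0.15, limma adjusted p = 0.0255), which rests on the arrays that chose it, and the call was lost under 6 of 13 alternatives. The effects of the other 5 genes lay between -0.25 (Mbd1, limma adjusted p = 0.271) and 0.11 (Zbtb38, limma adjusted p = 0.631), and none of them passed.

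**Figure D4:**
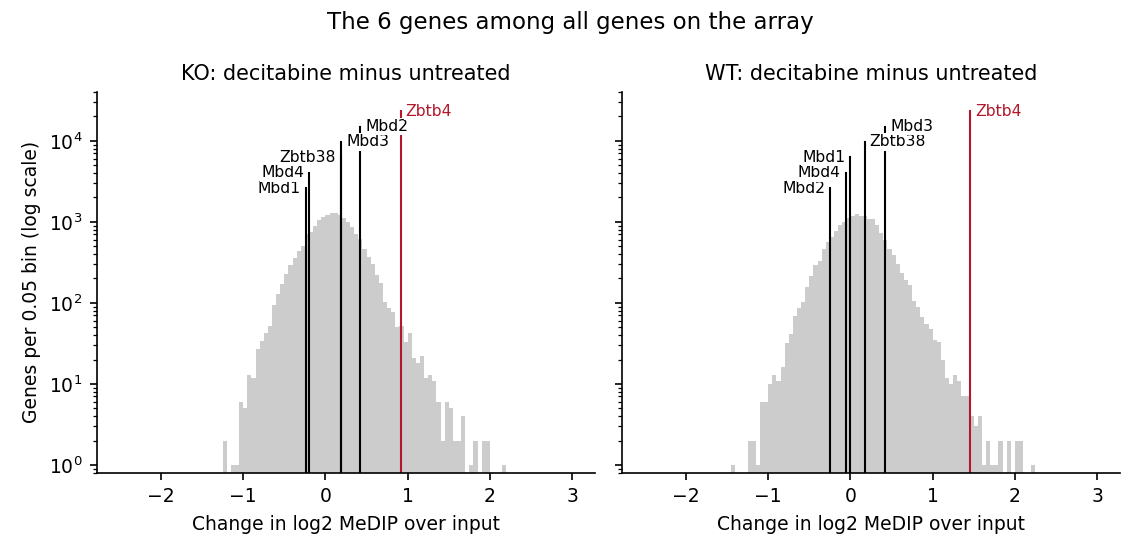
Distribution of the change with decitabine over all 18332 genes (grey, number of genes on a log axis) in KO cells (left) and WT cells (right), with the 6 genes marked. Zbtb4 lies in the upper tail at 0.92 in KO and 1.46 in WT cells, and the other 5 genes lie between -0.24 and 0.42 in KO and between -0.25 and 0.43 in WT cells.

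The other genes of the same machinery were read from 4 lists. Of all genes, 14.5% were called with decitabine and 4.11% by genotype, in either direction. Of 10 measured genes for other methyl-CpG binding and MBD-domain proteins (Zbtb33, Setdb1 and others), 0 were called with decitabine, with a median effect of 0.18, beside 0.10 over all genes tested. By genotype 1 was called lower, Mbd3l2 (limma adjusted p = 0.0255), which also passed the 2-fold limit as lower in KO than in WT cells with decitabine. The genotype call was lost under 4 of 13 alternatives, which were loess (limma adjusted p = 0.235), quantile normalization (limma adjusted p = 0.176), the median over probes and the MeDIP channel alone. None of its 7 kept probes was above background on any array, and no size is given.

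Of 10 measured NuRD subunits, 3 were called higher with decitabine and 0 lower, beside 11% of all genes called higher and 3.5% lower, with a median effect of 0.27, beside 0.10 over all genes. The number of subunits called in either direction ran from 0 to 7 and moved by over 1.5 times under 9 of 14 alternatives. Over all 18332 genes the number called ran from 9 to 10111. Chd4, an ATPase of the complex, rose by 0.63 (SE 0.12, limma adjusted p = 0.0129, 37 probes), with levels of 0.44 and 0.26 on the KO and WT decitabine arrays, against -0.11 and -0.46 on the untreated KO and WT arrays. Both decitabine levels stood above both untreated levels. The small subunit gene Cdk2ap1 rose by 0.54 (SE 0.12, limma adjusted p = 0.0231, 17 probes). Chd3, an alternative ATPase, rose by 0.40 (SE 0.12, limma adjusted p = 0.0497, 21 probes).

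These calls were lost or turned under 6 of 13 alternatives for Chd4 and 7 of 13 each for Cdk2ap1 and Chd3. With centring on bright probes Chd4 was at 0.03, Cdk2ap1 at -0.06 and Chd3 at -0.20, and as the median over probes Cdk2ap1 was at -0.03. Chd4 was above background at 12, 11, 2 and 2 of 37 probes on the KO decitabine, WT decitabine, untreated KO and untreated WT arrays. Cdk2ap1 was so at 5, 5, 1 and 1 of 17 probes and Chd3 at 4, 2, 2 and 1 of 21. None of the 3 passed the 2-fold limit in any comparison. The untreated arrays held more surrogate values across all kept probes, and their part in these 3 changes was not tested.

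Of 12 other corepressors and partners, among them Sin3a, Ncor1 and Hdac3, 0 were called for decitabine or genotype, with a median decitabine effect of 0.11. Beside this list and the next stand 14.5% of all genes called for decitabine and 4.11% for genotype. Of 26 other Zbtb family genes, 1 was called with decitabine, Zbtb12, a BTB zinc finger gene, at 0.65 (SE 0.12, limma adjusted p = 0.0118) and also by genotype at 0.65 (limma adjusted p = 0.0255). Its levels were 0.50 and -0.06 on the KO and WT decitabine arrays, against -0.07 and -0.79 on the untreated KO and WT arrays. Of its 9 probes 2 and 1 were above background on the KO and WT decitabine arrays and 0 on either untreated array, and its decitabine call was lost under 7 of 13 alternatives, among them loess, where the effect was -0.10. Its genotype call was lost under 8 of 13 alternatives, over which the effect ran from 0.26 to 0.71. The median decitabine effect of the family was 0.10, as over all genes. Over 14 alternatives the number called with decitabine ran from 0 to 15 in this family and from 0 to 6 among the corepressors and partners. Among the other methyl-CpG binding and MBD-domain genes it ran from 0 to 4. It was highest for the first 2 lists with centring on bright probes and for the last with centring on all probes. Over all 18332 genes the number called ran from 9 to 10111, also highest with centring on bright probes.

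The 5 genes whose levels over the 4 arrays were most like those of Zbtb4 were Zfp827, Ermp1, Dbn1, Rimbp2 and Tie1. Likeness was the Euclidean distance between levels after each gene's mean was subtracted, over 4 arrays and among 5926 named genes with at least 5 kept probes and at least 1 probe above background on every array. The distances ran from 0.18 for Zfp827 to 0.39 for Tie1. Zfp827, a zinc finger gene on chromosome 8, had levels of 0.39 and 0.10 on the KO and WT decitabine arrays, against -0.32 and -1.43 on the untreated KO and WT arrays. All 5 had their lowest level on the untreated WT array and their highest on the KO decitabine array. Zbtb4 had the same order, and the 5 were picked for their likeness to it, so this order follows from the choice.

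The genes next to Zbtb4 had other levels on the untreated WT array, -0.26 for Polr2a and -0.33 for Amac1, against -0.95 for Zbtb4. Within 20000 bases of its outermost probes, Polr2a, the largest subunit gene of RNA polymerase II, and Amac1 had kept probes, 15 and 11 of them. Polr2a changed with decitabine by 0.54 ± 0.98 in KO and 0.19 ± 0.60 in WT cells, and Amac1 by 0.58 ± 1.18 in KO and 0.23 ± 0.65 in WT cells (SD over probes). Both moved more in KO than in WT cells, while Zbtb4 moved more in WT cells. Untreated KO cells minus untreated WT cells gave -0.42 ± 0.83 at Polr2a and -0.20 ± 0.81 at Amac1, against 1.06 ± 0.71 at Zbtb4. Zbtb4 was chosen for its rise in WT cells, which favours a low untreated WT level, and Polr2a and Amac1 were not. Its contrasts with them that use the WT arrays follow in part from that choice. The nearest probe of Amac1 lies 1452 bases and that of Polr2a 4581 bases from the first Zbtb4 probe, and the differences between these genes were not tested.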

How the data were processed

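MeDIP and input DNA of 4 groups were hybridised to 1 Agilent 2-colour array a group. The authors deposited scanner output from Feature Extraction 10.5 per the submitters' processing notes (10.5.1.1 per the file headers). Per the file headers, the deposited intensities are linear, background-subtracted and detrended, with surrogates for dim signals and dyes normalized to each other. The deposited log ratio is log10 of Cy5 over Cy3. Surrogates compress ratios at dim probes. The deposited flags gave signal above background.

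From the processed intensities, log2 ratios of MeDIP over input were averaged over the spots of a probe and centred on the median of the kept probes of each array. Kept probes had input well above background and no non-uniformity flag on all 4 arrays, which left 328399 of 520554. Genes are named as in the array design, whose names can be old, and those that carry a distance were joined to their gene. A gene needed at least 3 kept probes. Coordinates are mm9 per the file headers. All 191 member probes and 10148 sampled probes matched that genome, and genes are from GENCODE vM1. Effects over 4 arrays were fitted with limma 3.58.1 in R 4.3.3 (lmFit, eBayes, genotype and treatment, Benjamini-Hochberg), a step tested on simulated data. The simulated noise was drawn from the fitted model, with no shift between arrays, so this tests the code and not the p-values. The p-values rest on departures from additivity between these arrays. The variance of each gene was drawn by eBayes most of the way towards a value shared over all genes. The p-values measure no spread between replicates.

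The sequences of 3 of the 10 kept Zbtb4 probes, 2 of them in UTR, are not reported here. The members and lists were chosen with earlier results of these data known. The named genes are the 6 members, all kept Zbtb4 probes, the probes of the other members with the largest and lowest change with decitabine, called list genes, the 5 genes most like Zbtb4 and its neighbours. The series value table was not used here because its row identifiers could not be tied to the probes. The alternatives were loess, quantile, normexp with an offset of 50, the deposited log ratio, the MeDIP channel alone, centring on bright or on all probes, medians, summed signals, no probe filter, bright probes only, at least 5 probes, robust limma, single probes left out and names with a distance kept apart. Centring on all probes and the separate names were added after the data were seen.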

Additional observations from a re-analysis of the deposited data

Results flagged for a closer look

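The change of Mbd2 with decitabine was 0.42 in KO cells and -0.25 in WT cells, with 14 of 23 probes higher in KO and 13 of 23 lower in WT cells. What drew attention is the opposite direction in the 2 genotypes, each seen on a single pair of arrays, and the difference was not tested. The signs were the same in both genotypes after loess (-0.025 in KO and -0.41 in WT cells), with centring on bright probes (-0.33 and -0.69) and with normexp (0.20 and 0.044).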

How the results depend on the processing

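With 1 array for each group, leaving out a replicate was not an option, and slide and dye cannot be separated from group. No paired analysis was possible because each group holds 1 array and the groups share no second replicate number; the additive limma fit compares treatment within genotype, but pairs no replicates. At Zbtb4 a single probe was above background on all 4 arrays, so most sizes rest on dim untreated signals. The change of Zbtb4 stayed above 0 in all 4 comparisons under every alternative run, but its size and its place past the 2-fold limit did not hold. The cause of these shifts was not tested, except that stricter probe minimums and separate names leave fewer genes or probes.

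As reported, the change of Zbtb4 was 0.92 for KO cells with over without decitabine, 1.46 for WT cells with over without decitabine, 1.06 for KO over WT cells untreated and 0.52 for KO over WT cells with decitabine. These 4 comparisons are named KO decitabine, WT decitabine, untreated genotype and treated genotype here. Past the 2-fold limit in them were 131 (122 higher, 9 lower), 136 (119 higher, 17 lower), 66 (36 higher, 30 lower) and 103 (84 higher, 19 lower) of all genes, and limma called 2652 (2011 higher, 641 lower) for decitabine and 754 (369 higher, 385 lower) for genotype. After loess, Zbtb4 changed by 0.061 for KO decitabine, 0.57 for WT decitabine, 0.72 for untreated genotype and 0.21 for treated genotype, and 0 of the 6 genes passed the 2-fold limit for WT decitabine and untreated genotype. Among all genes the limit was passed by 27 (9 higher, 18 lower) for KO decitabine, 83 (25 higher, 58 lower) for WT decitabine, 60 (13 higher, 47 lower) for untreated genotype and 42 (22 higher, 20 lower) for treated genotype. Limma called 0 of the 6 genes and 12 (3 higher, 9 lower) of all genes for decitabine, and 0 of the 6 genes and 20 (4 higher, 16 lower) of all genes for genotype. The decitabine effect changed sign, to -0.082 for Zbtb38, -0.22 for Mbd2 and -0.10 for Zbtb12. The genotype effect changed sign, to -0.013 for Zbtb38 and -0.0074 for Mbd2. After quantile normalization, 0 of the 6 genes passed the 2-fold limit for WT decitabine and untreated genotype. The 2-fold limit was passed by these numbers of all genes: 136 (94 higher, 42 lower) for KO decitabine, 59 (37 higher, 22 lower) for WT decitabine and 30 (13 higher, 17 lower) for untreated genotype. The limma fit called 0 of the 6 genes and 9 (9 higher, 0 lower) of all genes for decitabine, and 0 of the 6 genes and 0 of all genes for genotype. Centred on bright probes, Zbtb4 changed by 0.16 for KO decitabine, 1.01 for WT decitabine and 0.27 for treated genotype, and 0 of the 6 genes passed the 2-fold limit for WT decitabine. Among all genes the limit was passed by 2350 (5 higher, 2345 lower) for KO decitabine, 403 (17 higher, 386 lower) for WT decitabine, 72 (53 higher, 19 lower) for untreated genotype and 134 (23 higher, 111 lower) for treated genotype. Limma called 4 of the 6 genes and 10111 (74 higher, 10037 lower) of all genes for decitabine, and 0 of the 6 genes and 238 (93 higher, 145 lower) of all genes for genotype. The decitabine effect changed sign, to -0.42 for Zbtb38, -0.51 for Mbd2, -0.29 for Mbd3, -0.57 for Mbd3l2, -0.20 for Chd3 and -0.060 for Cdk2ap1. The genotype effect changed sign, to -0.077 for Mbd2. With normexp, Zbtb4 changed by 0.39 for KO decitabine and 0.99 for WT decitabine, and 0 of the 6 genes passed the 2-fold limit for WT decitabine and untreated genotype. The 2-fold limit was passed by these numbers of all genes: 33 (21 higher, 12 lower) for KO decitabine, 37 (36 higher, 1 lower) for WT decitabine, 64 (56 higher, 8 lower) for untreated genotype and 18 (16 higher, 2 lower) for treated genotype. The limma fit called 644 (489 higher, 155 lower) of all genes for decitabine, and 609 (480 higher, 129 lower) of all genes for genotype. Turned decitabine effects were 0.12 for Mbd4 and -0.068 for Mbd3l2. Turned genotype effects were -0.039 for Mbd2, 0.038 for Mbd3 and 0.022 for Mbd4. With the deposited log ratio, limma called 3288 (2931 higher, 357 lower) of all genes for decitabine. With the MeDIP channel alone, Zbtb4 changed by 0.77 for untreated genotype and 0.055 for treated genotype, and 0 of the 6 genes passed the 2-fold limit for untreated genotype. The 2-fold limit was passed by these numbers of all genes: 32 (24 higher, 8 lower) for KO decitabine, 79 (65 higher, 14 lower) for WT decitabine, 12 (11 higher, 1 lower) for untreated genotype and 16 (11 higher, 5 lower) for treated genotype. The limma fit called 2726 (926 higher, 1800 lower) of all genes for decitabine, and 0 of the 6 genes and 19 (13 higher, 6 lower) of all genes for genotype. Turned decitabine effects were -0.044 for Mbd2. Centred on all probes, 1 of the 6 genes passed the 2-fold limit for KO decitabine. Among all genes the limit was passed by 211 (209 higher, 2 lower) for KO decitabine, 254 (250 higher, 4 lower) for WT decitabine and 77 (60 higher, 17 lower) for untreated genotype. Limma called 2 of the 6 genes and 5777 (5459 higher, 318 lower) of all genes for decitabine, and 749 (543 higher, 206 lower) of all genes for genotype. The decitabine effect changed sign, to 0.019 for Mbd1 and 0.013 for Mbd4. The genotype effect changed sign, to 0.0083 for Mbd3. With medians over probes, Zbtb4 changed by 1.24 for KO decitabine and 0.62 for untreated genotype, and 1 of the 6 genes passed the 2-fold limit for KO decitabine, and 0 of the 6 genes passed the 2-fold limit for untreated genotype. The 2-fold limit was passed by these numbers of all genes: 116 (59 higher, 57 lower) for untreated genotype and 156 (112 higher, 44 lower) for treated genotype. The limma fit called 1051 (752 higher, 299 lower) of all genes for decitabine, and 0 of the 6 genes and 451 (246 higher, 205 lower) of all genes for genotype. Turned decitabine effects were -0.022 for Mbd2, -0.0075 for Mbd3 and -0.030 for Cdk2ap1. Turned genotype effects were -0.021 for Mbd2 and 0.0093 for Mbd4. With summed signals, Zbtb4 changed by 0.61 for KO decitabine, 0.79 for untreated genotype and 0.28 for treated genotype, and 0 of the 6 genes passed the 2-fold limit for untreated genotype. Among all genes the limit was passed by 273 (62 higher, 211 lower) for KO decitabine, 270 (101 higher, 169 lower) for WT decitabine, 148 (70 higher, 78 lower) for untreated genotype and 129 (61 higher, 68 lower) for treated genotype. Limma called 3601 (1880 higher, 1721 lower) of all genes for decitabine, and 0 of the 6 genes and 342 (163 higher, 179 lower) of all genes for genotype. The decitabine effect changed sign, to -0.14 for Mbd2 and -0.28 for Mbd3l2. The genotype effect changed sign, to 0.12 for Mbd3. Without the probe filter, Zbtb4 changed by 0.49 for KO decitabine and 1.04 for WT decitabine, and 0 of the 6 genes passed the 2-fold limit for WT decitabine. The 2-fold limit was passed by these numbers of all genes: 87 (78 higher, 9 lower) for WT decitabine. The limma fit called 2725 (1469 higher, 1256 lower) of all genes for genotype. Turned genotype effects were -0.046 for Mbd2 and 0.022 for Mbd4. With probes above background alone, Zbtb4 changed by 0.76 for WT decitabine, 0.34 for untreated genotype and 0.19 for treated genotype. Among all genes the limit was passed by 314 (314 higher, 0 lower) for KO decitabine, 85 (85 higher, 0 lower) for WT decitabine and 3 (3 higher, 0 lower) for untreated genotype. Limma called 352 (352 higher, 0 lower) of all genes for decitabine, and 40 (39 higher, 1 lower) of all genes for genotype. With at least 5 kept probes, of all genes the limit was passed by 55 (52 higher, 3 lower) for KO decitabine, 79 (71 higher, 8 lower) for WT decitabine, 28 (10 higher, 18 lower) for untreated genotype and 34 (27 higher, 7 lower) for treated genotype. With distance names kept apart, of all genes the limit was passed by 71 (64 higher, 7 lower) for KO decitabine, 41 (18 higher, 23 lower) for untreated genotype and 52 (40 higher, 12 lower) for treated genotype. With any 1 probe left out, Zbtb4 ran from 0.81 to 1.08 for KO decitabine, 1.21 to 1.64 for WT decitabine, 0.93 to 1.15 for untreated genotype and 0.31 to 0.60 for treated genotype.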
